A study of Zanthoxylum armatum with 24 samples.

Results

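The genes described here are a run of consecutive gene IDs of *Z. armatum*, Zardc38650 to Zardc38968, whose levels were higher in male than in female floral samples. *Z. armatum* (green prickly ash) is a tree of the citrus family. The study describes most of its plants as gynogenetic and reproducing parthenogenetically, and a few as male or monoecious. Bisexual flowers are seen at times, and trees with some male flowers can become male over the years. Of the 319 IDs in the run, 221 had at least 1 FPKM in at least 3 libraries and are the members. FPKM counts the fragments of a gene relative to its length and to all mapped fragments of the library. The rule left out 1 ID, Zardc38825, and 97 IDs were below the FPKM minimum, 43 of which were at 0 in every library. Over the whole genome, 38734 of 60592 listed genes passed the same minimum and were tested. The run had been chosen because its genes were higher in males in these libraries, so the differences between the sexes are given as a description, and no test is read from them.

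The libraries were made from pooled floral buds of five-year-old trees whose sex was checked at flowering. The male groups were undifferentiated primordia (M1), primordia initiation (M2), primordia differentiation (M3) and development and maturation (M4), and F1 to F4 were the same stages of female buds. Each of the 8 groups has 3 samples, and 23 of the 24 were used. The values deposited for the third M2 sample cover 183 genes, 182 of which equal those of M3 replicate 1, and were not used, so M2 has 2 libraries. All samples came from trees of 1 site, and which trees went into which replicate and stage was not analysed here. P-values therefore measure the spread between these pools.

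The sources do not pair the members with gene names, so they are given by ID, and no function or sequence is given for any of them. Gene IDs of a sequenced genome are usually numbered along its assembled sequences, so that genes with neighbouring numbers often lie near each other. Where these IDs lie in the assembly was not analysed here, and the order below is the order of the numbers. In dioecious plants, male and female trees differ in their flower organs and often in a region of the genome, and genes with higher RNA levels in males are commonly called male-biased. The study proposes that *Z. armatum* is pseudo-dioecious. Whether its male and female trees differ in such a region was not analysed here.

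Depth was alike in the sexes, at 0.903 to 1.03 times that of M1 replicate 1 in the 11 male libraries and 0.853 to 1.09 times in the 12 female libraries. Genes with at least 1 FPKM numbered 33854 to 34078 per male library and 32887 to 33877 per female library. RNA quality was not alike. The RNA integrity numbers in the study were lower in F3 than in M3 and in F4 than in M4, without overlap. They were also lower in F3 and F4 than in F1 and F2. How this bears on the differences between sexes and stages was not tested. The labels were checked at stage 4 with 13 floral organ genes that the study picked from the same libraries. The 9 genes checked of the AP3/PI class, which specify petals and stamens in Arabidopsis, summed to 148.8 to 169.9 FPKM in M4 and 13.1 to 15.7 FPKM in F4. Most of the M4 sum came from Zardc17043, with a mean of 122 FPKM. Of the 9, 8 had all M4 libraries above all F4 libraries. PI genes that the study lists under IDs of another form were not included. The 4 genes of the STK/SHP1 class, which act in carpels and ovules there, summed to 13.3 to 13.7 FPKM in M4 and 36.0 to 42.2 FPKM in F4. Of the 4, 3 had all M4 libraries below all F4 libraries. These are whole buds, so a larger share of cells that express a gene and more RNA per cell cannot be told apart.

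The excess in males was modest for most members and was present at all 4 stages. The median ratio of the male to the female mean FPKM was 1.30 at stage 1, 1.34 at stage 2, 1.26 at stage 3 and 1.26 at stage 4, over the 219, 218, 218 and 217 members with a female mean above 0. The middle 50% of the ratios ran from 1.106 to 1.61, 1.19 to 1.66, 1.01 to 1.55 and 1.004 to 1.62 at the 4 stages. A ratio of at least 2 was found for 37, 37, 30 and 36 members, and a ratio of at most 0.5 for 5, 2, 3 and 8 members. On the scale of log2(FPKM + 1), which draws the differences of weak genes toward 0, the median male minus female difference was 0.35, 0.38, 0.27 and 0.27. Over the 38513 other tested genes it was within 0.01 of 0 at each stage.

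**Figure D1:**
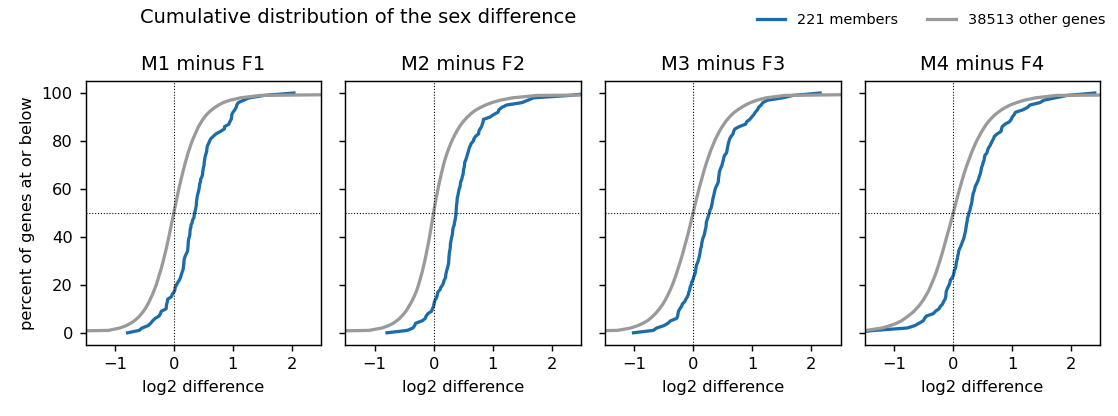
Cumulative distribution of the male minus female difference in log2(FPKM + 1) at each stage, for the 221 members (blue) and the 38513 other tested genes (grey). The horizontal axis is the difference of the group means and is drawn from -1.5 to 2.5, and the vertical axis is the percent of genes at or below it. The curve of the members lies to the right over most of its length, crossing 50 percent at 0.35, 0.38, 0.27 and 0.27.

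Of the 221 members, 183 were higher in males at stage 1 (82.8%), 195 at stage 2 (88.2%), 171 at stage 3 (77.4%) and 168 at stage 4 (76.0%). A total of 129 members (58.4%) were higher in males at all 4 stages, 46 at 3 stages, 25 at 2 stages and 13 at 1 stage. Among the other tested genes, 16.1% were higher in males at all 4 stages. At the other end, 7 members (3.17%) were lower in males at all 4 stages, against 15.8% of the other genes. The difference of a member at a stage correlated with that at another stage with a Pearson's r of 0.345 to 0.558 over the 221 members, and with 0.341 to 0.573 over the other genes. These correlations are across genes, which are not independent replicates, and no library is shared between stages.

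The shift was also seen library by library. For each library, the median over the members of log2(FPKM + 1) was taken after subtracting the mean of the 8 group means of each gene. It was 0.202 ± 0.0219 in M1 (SD, n = 3), 0.230 ± 0.0149 in M2 (n = 2), 0.111 ± 0.00969 in M3 and 0.114 ± 0.00975 in M4 (n = 3 each). In females it was -0.165 ± 0.0203 in F1, -0.154 ± 0.00603 in F2, -0.203 ± 0.0244 in F3 and -0.183 ± 0.0218 in F4 (n = 3 each). Every one of the 11 male libraries lay above every female library, between 0.0994 and 0.241 in males and between -0.226 and -0.142 in females. The male values were higher in M1 and M2 than in M3 and M4 without overlap, while the female values overlapped between most stages. For the 401 flanking genes, those of the 319 IDs before and the 319 IDs after the run, the same measure was 0.0165 to 0.0679 in males and -0.0937 to 0.0272 in females. Over the 38513 other tested genes it was 0.00196 to 0.00589 in males and -0.0125 to -0.00469 in females. The sexes were thus also without overlap there, by a far smaller amount. A lack of overlap between the libraries of the sexes is therefore not particular to the run.

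**Figure D2:**
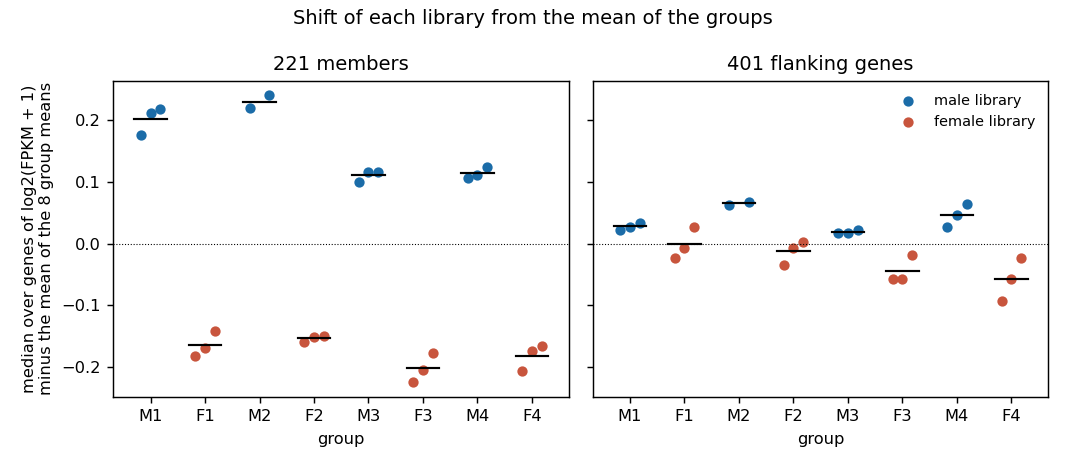
Shift of each library from the mean of the 8 groups, as the median over genes in log2(FPKM + 1), for the 221 members (left) and the 401 flanking genes (right). Each point is a library, the bar is the group mean, and male groups (blue) stand left of the female group (red) of the same stage. For the members the male libraries sit between 0.0994 and 0.241 and the female libraries between -0.226 and -0.142.

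The members together held 0.512 to 0.572% of the summed FPKM in male libraries and 0.383 to 0.440% in female libraries. Members listed at 0 FPKM numbered 0 to 3 per male library and 4 to 10 per female library. Zeros among all tested genes were not counted. Over the whole genome, female libraries also tended to have fewer genes with at least 1 FPKM, 32887 to 33877 against 33854 to 34078 in males. The zeros are thus not shown to be particular to the run. The 97 IDs of the run below the minimum, which are not members, summed to 6.30 to 10.6 FPKM in male libraries and 4.25 to 8.32 FPKM in female libraries, and these ranges overlap.

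Along the numbering, the excess was spread over most of the run. In 11 consecutive bins of 20 or 21 members, the median of the mean difference over the stages ran from 0.17 to 0.44, with 13 to 19 members higher in males per bin. The highest bin was the first, Zardc38650 to Zardc38682, where 19 of 21 members were higher in males. The lowest was the tenth, Zardc38912 to Zardc38946, where 13 of 20 were higher and the median of the bin at stage 4 was -0.04. The longest series of members higher in males on average held 24 members (Zardc38927 to Zardc38959), and the longest without one held 4 (Zardc38909 to Zardc38918, and Zardc38920 to Zardc38924). Zardc38919 was the only member between these series of 4, so that they made up nearly 1 stretch without the excess. All of their members but Zardc38909 were in the tenth bin.

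At both ends of the run, the nearest tested ID outside had a mean difference below 0. The run was chosen on these values, so this is a description of its ends and no test of a boundary. Neither of these IDs had 1 sign at all stages. The differences at stages 1 to 4 were -0.03, 0.38, -0.21 and -0.82 for Zardc38649, and -0.11, 0.25, -0.50 and 0.17 for Zardc38969. Zardc38650, the first member, had a mean difference over the stages of 0.21, and Zardc38649, the nearest tested ID before it, had -0.17. Zardc38968, the last member, had a mean difference of 0.46, and Zardc38969, the nearest tested ID after it, had -0.05. Zardc38968 had 3.16, 4.14 and 6.48 FPKM as the lowest, median and highest of the male libraries, against 2.45, 3.09 and 3.71 FPKM in female libraries. Zardc38969 had 7.05, 10.3 and 11.97 FPKM in male libraries, against 7.40, 9.43 and 16.5 FPKM in female libraries.

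Over the 191 tested genes of the 319 IDs before the run, the median difference was -0.08, -0.02, -0.03 and -0.03 at stages 1 to 4. Over the 210 tested genes of the 319 IDs after it, the median was 0.08, 0.19, 0.07 and 0.15, and 35.7% of them were higher in males at all 4 stages. The IDs after the run were thus also shifted to males, by less than the members. The whole numbering was cut into blocks of 319 IDs, the length of the run, counted from its first member. Of these, 173 blocks had at least 100 tested genes each. The run thus filled a block exactly, while any other stretch could be split between blocks. The blocks are a description, since the run was chosen on these values. Outside the run, the block medians of the mean difference ran from -0.15 to 0.12 and the share of genes higher in males from 26.6 to 67.1%. The highest of these values, 0.12 and 67.1%, belonged to the block right after the run.

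**Figure D3:**
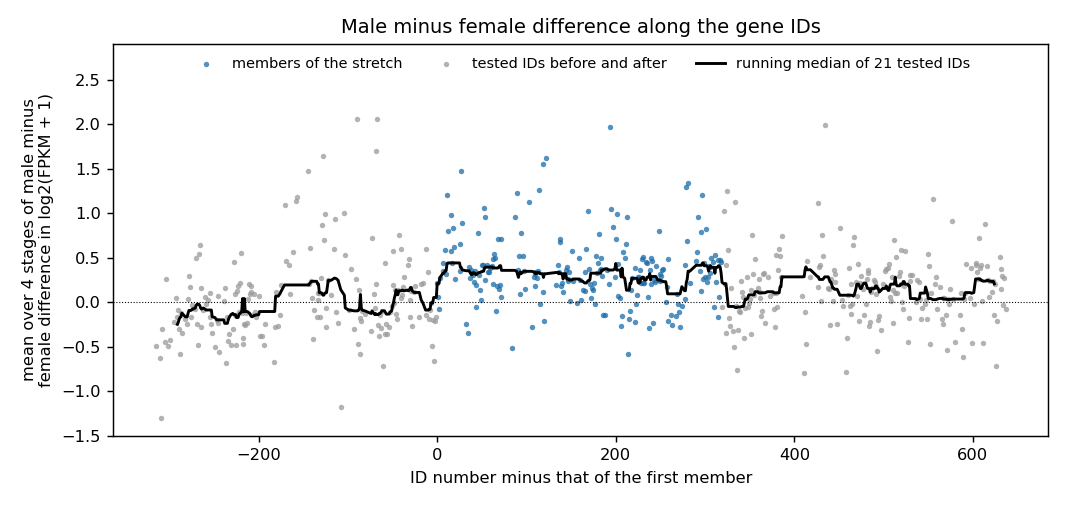
Mean over the 4 stages of the male minus female difference in log2(FPKM + 1) against the ID number counted from the first member. Each point is a tested gene, members are blue, genes of the 319 IDs on either side are grey, and the line is the running median of 21 tested IDs. The line stays above 0 across the members, whose median is 0.33, and is lower over most of the IDs on either side.

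The members had a median level of 8.06 FPKM over the libraries, and the other tested genes 7.77 FPKM. Split by level into 3 parts, the members had a median of the mean difference of 0.33 in the lowest part, 0.34 in the middle part and 0.32 in the highest part. The ratios of the means, which hold no pseudocount, were higher in the lowest part than in the highest at stages 2, 3 and 4. Their medians at stages 1 to 4 were 1.30, 1.57, 1.30 and 1.33 in the lowest part, 1.28, 1.42, 1.22 and 1.28 in the middle part and 1.32, 1.28, 1.26 and 1.18 in the highest part. By the sign of the mean difference, 56 of 74, 63 of 73 and 70 of 74 members of the 3 parts were higher in males. Among the 139 members with a mean of at least 5 FPKM, the median difference was 0.38, 0.38, 0.31 and 0.29 at stages 1 to 4.

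Zardc38875 was the most abundant member and Zardc38816 the second. Zardc38875 had 717, 733 and 742 FPKM in M1, against 497, 491 and 495 FPKM in F1. At stage 4 it had 714, 711 and 709 FPKM in M4, against 746, 708 and 685 FPKM in F4. Its male libraries were thus above the female ones at stage 1 and overlapped with them at stage 4. Zardc38816 had 210, 336 and 406 FPKM as the lowest, median and highest of the male libraries, against 195, 286 and 368 FPKM in female libraries, with differences of 0.29, 0.17, -0.03 and 0.10 at stages 1 to 4.

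A total of 14 members had a mean difference of at least 1, and the 2 with the largest were Zardc38843 and Zardc38772. Zardc38843 had 2.04, 2.81 and 4.67 FPKM as the lowest, median and highest of the male libraries, against 0, 0 and 0.193 FPKM in female libraries. It was listed at 0 in all 3 libraries of F4 and was above 2 FPKM in all male libraries, and its difference was 2.04, 1.90, 2.15 and 1.77 at stages 1 to 4. Zardc38772 fell in both sexes toward maturity and stayed higher in males at each stage. It had 15.3, 14.4 and 14.7 FPKM in M4, against 2.97, 3.87 and 2.44 FPKM in F4, and 30.5, 29.6 and 31.0 FPKM in M1, against 14.8, 12.3 and 11.4 FPKM in F1. The ratio of its means was 2.37, 3.26, 3.50 and 4.79 at stages 1 to 4.

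Some members were not seen in females at all. Zardc38947 and Zardc38753 were listed at 0 FPKM in all 12 female libraries, and no member was listed at 0 in all male libraries. Both passed the FPKM minimum through male libraries alone, in a run chosen for higher male levels, so this is only a description. How many of all tested genes were at 0 in every library of a sex was not counted. Zardc38947 had 4.40 and 4.22 FPKM in M2, the stage at which it was highest, and 0, 0 and 0.456 FPKM in M4. Zardc38753 had 4.19 and 4.92 FPKM in M2, and 0, 0.166 and 0 FPKM in M4. Both were thus weak, and at stage 4 the sexes could hardly be told apart in either. Without read counts in the files, the uncertainty of a listed 0 cannot be given.

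The members also differed in how steady the excess was over the stages. Among members with a mean of at least 1 FPKM, Zardc38885 and Zardc38702 were the steadiest. Zardc38702 had a ratio of 2.30, 2.43, 2.41 and 2.37 at stages 1 to 4, and had 7.31, 8.37 and 10.6 FPKM as the lowest, median and highest of the male libraries, against 2.78, 3.72 and 4.30 FPKM in female libraries. Zardc38885 had a ratio of 1.39, 1.44, 1.41 and 1.42, while its level in males was 9.99 ± 0.607 FPKM in M1 and 6.21 ± 0.387 FPKM in M4 (SD, n = 3 each). The least steady were Zardc38682 and Zardc38828, described below with the stage changes.

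**Figure D4:**
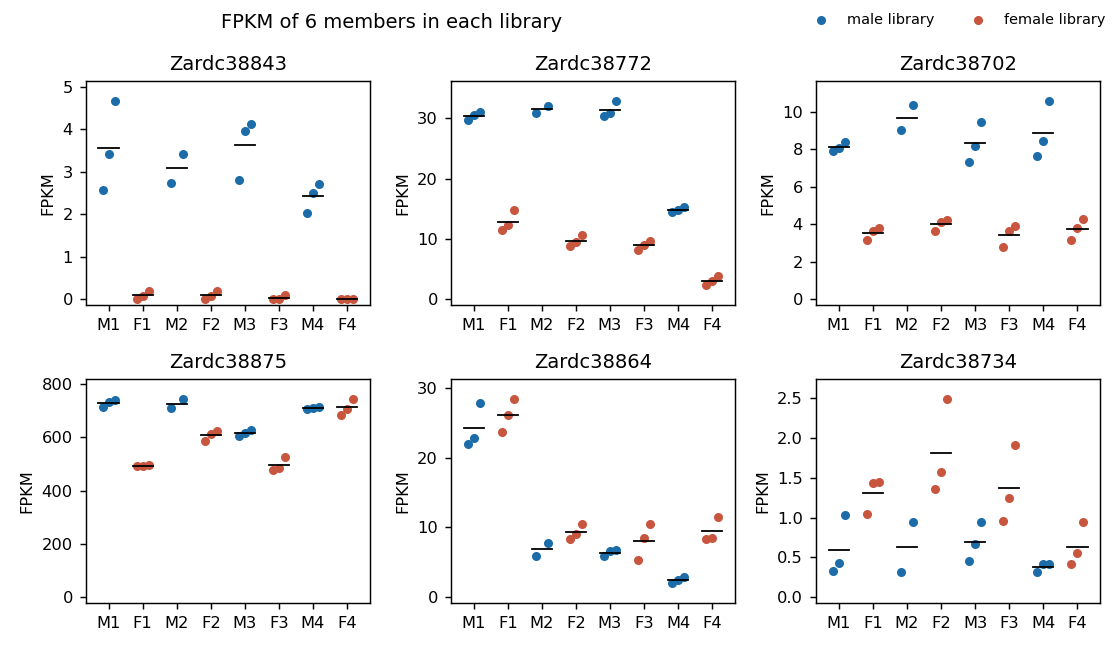
FPKM (vertical axis) of 6 members in each of the 23 libraries, with male groups (blue) left of the female group (red) of the same stage and a bar at each group mean. Zardc38843 is near 0 in all female libraries, Zardc38772 and Zardc38702 are higher in males at each stage, Zardc38875 overlaps between M4 and F4, and Zardc38864 and Zardc38734 have lower male than female means at each stage.

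On average over the stages, 32 of the 221 members were lower in males. The 2 members with the smallest mean difference were Zardc38864, with -0.59, and Zardc38734, with -0.51. Zardc38864 had 2.05, 2.40 and 2.93 FPKM in M4, against 8.29, 11.6 and 8.48 FPKM in F4, and 27.9, 22.8 and 22.02 FPKM in M1, against 26.2, 23.8 and 28.5 FPKM in F1. The sexes overlapped at stage 1 and were apart at stage 4. Zardc38734 was weak, with 0.315, 0.424 and 1.03 FPKM as the lowest, median and highest of the male libraries, against 0.414, 1.30 and 2.499 FPKM in female libraries.

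The other members that were lower in males at all 4 stages, picked after their values were seen, were Zardc38685, Zardc38856, Zardc38865, Zardc38912 and Zardc38913. Their mean differences were -0.34, -0.27, -0.18, -0.14 and -0.26, beside a median of 0.33 over all members. Zardc38864 and Zardc38865 have consecutive numbers, as do Zardc38912 and Zardc38913.

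Counts of members past the thresholds are given for each stage as a description, since the rule used these contrasts. A call in limma needed a log2 difference of 1 or more in size and an adjusted p no larger than 0.05, with Benjamini-Hochberg adjustment over all 38734 genes. In M1*vs.*F1, 18 members were called higher and 0 lower, beside 2.58% and 1.35% of all tested genes. In M2*vs.*F2 these were 21 and 0 members, beside 3.72% and 1.1% of all genes. At an unadjusted p of at most 0.05 with the same fold, the members lower in males were also 0 at both stages. With a pseudocount of 0.1 they were 3 in M1*vs.*F1 and 1 in M2*vs.*F2, and without M2 replicate 1 there was 1 in M2*vs.*F2. In M3*vs.*F3 they were 21 and 1 members, beside 3.66% and 2.35%. In M4*vs.*F4 they were 24 and 3 members, beside 4.64% and 3.47%. The member called lower in M3*vs.*F3 was Zardc38682, and those called lower in M4*vs.*F4 were Zardc38682, Zardc38864 and Zardc38892. In M3*vs.*F3, 0 members were called lower without M3 replicate 3, without F3 replicate 3, or in a test against the fold threshold itself. In M4*vs.*F4 that test called 1 member lower. A total of 9 members (4.07%) were called higher at all 4 stages, beside 0.966% of all genes, and 176 (79.6%) were called higher at none, beside 91.3%.

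The fold threshold left out most members, as their excess was below it. Without a fold threshold, every male library was above every female library at stage 1 for 129 members and below for 14, beside 22.8% and 21.3% of all tested genes. At stage 2, where M2 has 2 libraries, these were 162 and 10 members, beside 26.1% and 24.2% of all genes. At stage 3 they were 105 and 13 members, beside 23% and 22.6%, and at stage 4 they were 119 and 22 members, beside 27.8% and 26.3%. All 11 male libraries were above all 12 female libraries for 19 members, beside 2.34% of all genes, and were below them for 0 members, beside 0.692% of all genes.

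The changes between stages within a sex were not used to choose the run, and most of the counts of members stood near the background. Comparisons with a group in common, such as M3*vs.*M1 and M4*vs.*M3, share those libraries. In M3*vs.*M1, 4 members rose and 9 fell, beside 2.77% and 3.45% of all tested genes, which is 1.81% and 4.07% of the members. In F3*vs.*F1, 5 members rose and 8 fell, beside 3.04% and 3.48% of all genes, which is 2.26% and 3.62% of the members. In M4*vs.*M3, 17 members rose and 10 fell, beside 4.5% and 3.22% of all genes, which is 7.69% and 4.52% of the members. In F4*vs.*F3, 12 members rose and 10 fell, beside 4.25% and 3.4% of all genes, which is 5.43% and 4.52% of the members. The median change of the members was -0.08, -0.06, -0.04 and -0.05 in these 4 comparisons, and that of the other genes was within 0.01 of 0. The rises in M4*vs.*M3 stood farthest above it. In all, 47 members (21.3%) were called in at least 1 of the 4, beside 18.1% of all genes.

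The members that rose in M3*vs.*M1 were Zardc38719, Zardc38827, Zardc38828 and Zardc38874, and those that rose in F3*vs.*F1 were Zardc38682, Zardc38828, Zardc38855, Zardc38872 and Zardc38874. The largest rise in both sexes was that of Zardc38874. It had 15.5, 16.4 and 16.5 FPKM in M3, against 2.64, 2.96 and 3.63 FPKM in M1, a log2 difference of 2.08 with an adjusted p of 3.00e-08 in limma. In females it had 20.4, 18.6 and 17.4 FPKM in F3, against 5.29, 4.74 and 3.50 FPKM in F1, a difference of 1.85 with an adjusted p of 1.55e-07 in limma. Of the risers, Zardc38828 and Zardc38874 were called in both sexes, 2 of 4 in males and 2 of 5 in females, which is 0.905% of the members beside 1.38% of all genes.

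The largest fall in both sexes was that of Zardc38821. It had 6.37, 3.65 and 4.46 FPKM in M3, against 24.1, 22.2 and 20.2 FPKM in M1, a log2 difference of -2.01 with an adjusted p of 8.36e-11 in limma. In females it had 2.31, 2.38 and 2.35 FPKM in F3, against 14.9, 14.8 and 17.4 FPKM in F1, a difference of -2.31 with an adjusted p of 1.22e-11 in limma. Zardc38696, Zardc38821 and Zardc38864 fell in both sexes, 3 of 9 members in males and 3 of 8 in females, which is 1.36% of the members beside 1.35% of all genes.

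From stage 3 to stage 4, 7 members rose in both sexes, of 17 in males and 12 in females, and 5 fell in both, of 10 in each sex. These are 3.17% and 2.26% of the members, beside 2.04% and 1.62% of all genes. Zardc38819 rose most. It had 65.7, 63.8 and 67.3 FPKM in M4, against 5.80, 5.05 and 5.203 FPKM in M3, a log2 difference of 3.39 with an adjusted p of 3.20e-13 in limma. In females it had 19.2, 25.6 and 23.7 FPKM in F4, against 2.49, 3.30 and 4.19 FPKM in F3, a difference of 2.47 with an adjusted p of 5.15e-11 in limma. Both stages were thus apart in both sexes.

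Zardc38748 fell most from stage 3 to stage 4 in both sexes. It had 3.23, 3.74 and 4.54 FPKM in M4, against 15.9, 15.9 and 14.9 FPKM in M3, a log2 difference of -1.78 with an adjusted p of 1.59e-09 in limma. In females it had 3.04, 2.52 and 4.25 FPKM in F4, against 13.6, 11.7 and 14.4 FPKM in F3, a difference of -1.75 with an adjusted p of 2.09e-09 in limma. Zardc38828 was called in opposite directions, rising in M4*vs.*M3 and falling in F4*vs.*F3.

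**Figure D5:**
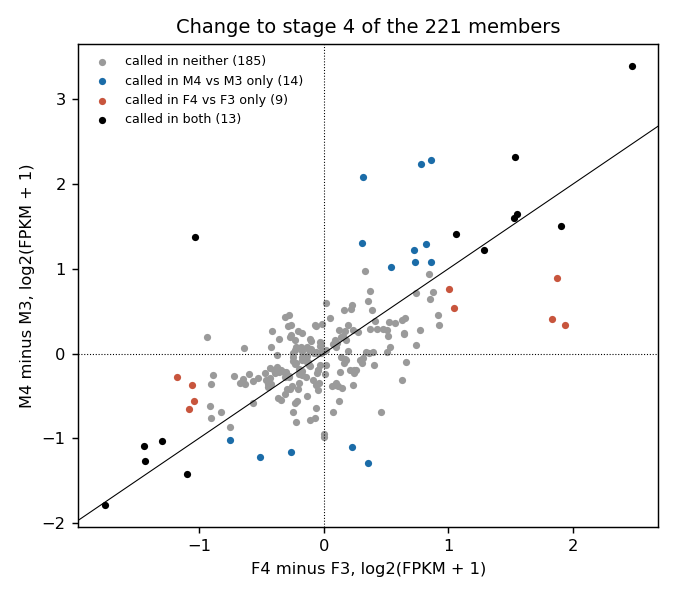
Change of the 221 members from stage 3 to stage 4 in log2(FPKM + 1), in males (M4 minus M3, vertical axis) and in females (F4 minus F3, horizontal axis). Each point is a member, the line marks equal change, and colours give the calls. A total of 13 members were called in both sexes, 14 in males only, 9 in females only and 185 in neither, and Zardc38819 is at the top right with 2.47 and 3.39.

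Whether the sex difference itself changed over the stages was tested as an interaction of sex and stage. The interaction is built from the same male minus female differences on which the run was chosen. How that choice bears on its p-values and counts was not tested. Between stage 1 and stage 3, the difference shifted toward males in 1 member, Zardc38863, and toward females in 3 members, beside 1.61% and 1.37% of all tested genes. From stage 3 to stage 4 it shifted toward males in 5 members and toward females in 4, beside 2.56% and 2.88% of all genes. In all, 12 members (5.43%) were called in either interaction, beside 7.79% of all genes, and the median over the members was -0.03 and 0.03. The shares of members called were 0.452% and 1.36% from stage 1 to stage 3, and 2.26% and 1.81% from stage 3 to stage 4.

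Zardc38863 had 12.1, 12.6 and 12.5 FPKM in M3, against 3.11, 1.82 and 5.79 FPKM in F3, while at stage 1 it had 7.62, 7.08 and 7.49 FPKM in M1, against 5.91, 5.70 and 7.35 FPKM in F1. Its interaction was 1.44 with an adjusted p of 0.0106 in limma. Zardc38682 moved the other way and changed sign. It had 2.14, 1.63 and 1.99 FPKM in M1, against 0.486, 0.273 and 0.359 FPKM in F1, and 1.03, 1.57 and 0.697 FPKM in M3, against 3.16, 2.86 and 3.56 FPKM in F3. Its interaction was -2.10 with an adjusted p of 1.36e-05 in limma. At stage 4 it had 0.643, 0.544 and 0.0901 FPKM in M4, against 4.62, 3.03 and 3.17 FPKM in F4, so that males were above females at stage 1 and below them at stages 3 and 4. Neither interaction passed a test against the fold threshold itself, which called 0 members in this interval.

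From stage 3 to stage 4 the largest shift toward males was that of Zardc38828. It had 7.46, 8.53 and 6.81 FPKM in M4, against 1.02, 0.516 and 0.385 FPKM in F4, and 2.32, 1.90 and 2.80 FPKM in M3, against 2.36, 2.38 and 2.19 FPKM in F3. Its interaction was 2.40 with an adjusted p of 3.53e-07 in limma. The largest shift toward females was that of Zardc38722, which had 7.86, 6.95 and 6.90 FPKM in M4, against 8.11, 7.50 and 7.92 FPKM in F4, and 19.1, 19.9 and 18.6 FPKM in M3, against 5.76, 5.43 and 6.62 FPKM in F3. Its interaction was -1.65 with an adjusted p of 1.25e-09 in limma. The sexes were apart at stage 3 and overlapped at stage 4 for this gene.

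The stage at which a member was highest was compared between the sexes. In males, 74, 58, 28 and 61 members had their highest group mean at stages 1 to 4 (33.5, 26.2, 12.7 and 27.6%), against 61, 52, 50 and 58 in females (27.6, 23.5, 22.6 and 26.2%). Among the other genes the shares were 29.1, 19.8, 19.5 and 31.6% in males, against 24.8, 21.05, 24.7 and 29.5% in females. For 110 members (49.8%) the stage was the same in both sexes, as it was for 47.9% of the other genes.

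The FPKM minimum set the edge of the membership. The members just above it, by the FPKM of the library that ranks 3 from the top, were Zardc38716 with 1.05 FPKM and Zardc38965 with 1.09 FPKM, and the IDs just below it were Zardc38750 with 0.964 FPKM and Zardc38663 with 0.942 FPKM. The mean differences over the stages of these 4 IDs were -0.10, -0.16, 0.10 and -0.02. The scale of log2(FPKM + 1) draws the differences of such weak genes toward 0. These 4 IDs do not stand for weak members in general, as the lowest part of the members by level had a median of 0.33.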

How the data were processed

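The values deposited by the authors are FPKM per gene and library, made from HTSeq counts of reads aligned with a genome of *Z. armatum* that was published earlier. The submitters' processing notes name Bowtie 0.12.2 and mm8, a mouse build, which is not the genome the methods describe, so the aligner and build behind these values were not settled. Read counts were not used here, so count models were not run. No scaling beyond FPKM was applied. Depth was estimated from the steps of FPKM in 14329 weak genes.

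Members were the IDs Zardc38650 to Zardc38968 without Zardc38825, with at least 1 FPKM in at least 3 of the 23 libraries. The members and the comparisons were chosen with earlier results of these data known. With a pseudocount of 1, limma 3.58.1 (R 4.3.3) fitted log2 values of 38734 genes in all 8 groups at once, with a trended prior and 15 residual degrees of freedom. Benjamini-Hochberg adjustment ran over all genes of a contrast, and calls needed an adjusted p no larger than 0.05 and a log2 difference of 1 or more in size. The fit was also run on simulated data, with independent normal noise around the mean of each gene. Such noise is unlike that of genes near 0 FPKM, and nothing is concluded from that run here. Medians, ratios of means and plots were made in Python 3.11.15 with numpy 2.4.6, pandas 2.3.3 and matplotlib 3.10.9.

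Genes were named by a rule: the first and last member and the nearest tested IDs outside, the 2 most abundant, the 2 largest and 2 smallest mean differences, those at 0 in all libraries of a sex, the 2 steadiest and 2 least steady, the largest rise and fall of each stage contrast and interaction, and the 2 nearest to the FPKM minimum on either side. Alternatives were a pseudocount of 0.1, no filter, quantile normalization, a test against the fold threshold, p-values without adjustment, members with a mean of at least 5 FPKM, the mean over members, a fit of the compared groups alone, a replicate block and each library left out.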

Additional observations from a re-analysis of the deposited data

Results flagged for a closer look

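The test of the interaction of sex and stage in limma picked out 12 members whose male minus female difference in log2(FPKM + 1) differed between stages, 1 of them in both intervals. Values are the later difference minus the earlier one, so a positive value is a shift toward males. No group has more than 3 libraries, so single libraries were not screened for outlying values.

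From stage 1 to stage 3 the values were -2.10 for Zardc38682, -1.66 for Zardc38759, -1.01 for Zardc38819 and 1.44 for Zardc38863. In Zardc38759 the sexes crossed, with 9.91 ± 0.612 FPKM in M1 against 4.70 ± 1.67 FPKM in F1, and 3.44 ± 0.458 FPKM in M3 against 6.14 ± 0.678 FPKM in F3 (SD, n = 3 each). Zardc38819 was higher in males at each stage, and its differences were 1.58 at stage 1 and 0.57 at stage 3.

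From stage 3 to stage 4 the values toward males were 1.42 for Zardc38669, 1.77 for Zardc38696, 1.45 for Zardc38759, 2.40 for Zardc38828 and 1.0003 for Zardc38890. Zardc38696 had 65.0 ± 2.03 FPKM in M4 against 17.9 ± 1.118 FPKM in F4, and 14.6 ± 0.885 FPKM in M3 against 14.1 ± 1.24 FPKM in F3. The values toward females were -1.65 for Zardc38722, -1.42 for Zardc38821, -1.33 for Zardc38864 and -1.61 for Zardc38892. Zardc38821 was higher in males at stage 3, with a difference of 0.77, and lower at stage 4, with -0.65. Zardc38892 had 0.751 ± 0.511 FPKM in M4 against 3.71 ± 0.402 FPKM in F4, and was under 1 FPKM on average in all other groups.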

How the results depend on the processing

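No median and no named gene's value for a stage change or interaction changed sign under any alternative run. Of these gene values under the alternatives, 358 kept their call. The stage 1 to 3 interactions of Zardc38863 and Zardc38682 did not pass the test against the fold threshold. A test against the fold threshold itself gave fewer members: 6 in M3*vs.*M1, 9 in M4*vs.*M3, 2 in F3*vs.*F1, 8 in F4*vs.*F3, 0 and 3 in the interactions, and 1, 7, 4 and 7 higher in males at stages 1 to 4. At a pseudocount of 0.1, 24 members were called in M3*vs.*M1, and 31, 32 and 38 were higher in males at stages 1, 2 and 4. The median difference of the members at stages 1 to 4 was then 0.39, 0.42, 0.34 and 0.34. With no filter it was 0.26, 0.32, 0.18 and 0.21. Quantile normalization gave 0.35 at stage 2 and 0.25 at stage 3. Members with a mean of at least 5 FPKM gave 0.38, 0.31 and 0.29 at stages 1, 3 and 4. The mean over members was 0.44, 0.32 and 0.32 at stages 2, 3 and 4. These shifts exceeded 0.0173, the SD between libraries of a group of the median over members. That SD measures the spread between libraries and not the effect of processing, so it does not gauge these shifts. Their cause was not tested. With a library left out, the median ran from 0.34 to 0.37, 0.35 to 0.38, 0.27 to 0.30 and 0.24 to 0.29 at the 4 stages. The balance of members that rose and fell turned in F4*vs.*F3 without F3 replicate 1 (10 and 11), and that of shifts toward males and females in the stage 3 to 4 interaction without M3 replicate 1 (5 and 7), F3 replicate 3 or F4 replicate 2 (5 and 6 each). Where leaving out a library left 1 M2 library, it was assumed to vary like the other groups.

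Same-numbered libraries showed no common deviation (correlation -0.0782 to 0.0905 over 23 pairs). The groups hold few libraries, so this cannot tell whether libraries of the same replicate number shared trees or handling. With the number as a replicate block, the calls were 13, 27, 13 and 22 in the stage comparisons in the order above, 5 and 9 in the interactions, and 18, 22, 21 and 24 members higher in males at stages 1 to 4.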
